A study of Homo sapiens with 4 samples.

Results

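Very long genes were taken as the gene entries, read on the gene's own strand, that span over 300 kb of the genome from start to end. There were 890 of them among 57428 genes. Of these, 861 had a mean estimated count of at least 10 reads over the 4 libraries, 29 had fewer and 2 of the 29 had no read in any library. The comparisons cover the 857 genes that met this count and also passed the expression filter of the test across all genes. A further 4 met the count but not the filter, and 4 passed the filter but not the count; these were not compared. The rule used length and the mean count over both groups, and it set the hypertonic libraries side by side because earlier results of these data had shown them to differ. The pattern between those libraries is therefore given as a description.

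The cells were U2OS, a human osteosarcoma line, stably overexpressing GFP-DCP1a under G418 selection, and every group carried this transgene. The label names no promoter and no clone for it. In the hypertonic group (2 libraries) the medium held 300 mM sodium, added as concentrated saline, and in the isotonic group (2 libraries) it held 150 mM with the same volume of ordinary saline. Nascent RNA was marked with 2 mM bromouridine for 30 min, pulled down with an antibody and sequenced with no chase (Bru-seq), so that most reads come from introns of RNA still being made. The length of the salt exposure and whether the replicates were separate cultures are not given, so a p-value here covers only variation among these 4 libraries, some of it perhaps technical. Libraries held 23048409 to 44888307 counts. Of the sense and antisense counts of the genes used, the antisense strand took 6.03 to 8.60% in the hypertonic libraries. In the isotonic libraries it took 3.17 to 3.36%. Of 8 mesenchymal and osteosarcoma markers, 4 reached a mean of 1 RPKM and TWIST1 was listed at 0, while no marker of epithelial, blood, neural, liver and muscle cells (5 a list, liver and muscle together) reached that mean. The summed level of the 5 epithelial markers was 0.499 and 0.667 RPKM in the hypertonic and 0.586 and 0.267 RPKM in the isotonic libraries.

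RNA polymerase II reads a gene from its start to its end at a limited speed, so the far end of a very long gene is copied long after the start. In a short labelling window, polymerases that are spread along the whole gene each add a stretch of marked RNA. Most of the sequence of such a gene is intron, and many code for synaptic adhesion proteins, ion channels, guanine nucleotide exchange factors and cytoskeletal linkers. Several lie at common fragile sites, stretches of the genome that break when replication is slowed.

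The compared genes had a median span of 438 kb and a longest of 2474 kb (RBFOX1), against a median of 24.0 kb over the 21238 genes tested. Merged exons filled a median of 1.72% of their span, against 16.3% over all tested genes, and the longest stretch between exons had a median of 130 kb against 8.90 kb. Of all 890 entries, 714 were protein coding, 108 were lincRNAs and 37 were of the antisense type. The deposited tables count reads over a median of 99.9% of the span of the compared genes, with under 90% in 38 of them, and 566 share bases with another gene on their strand. One example is RBMS3, which was counted over 33.4% of its span. Of the 857, 81 lay on chromosome 3, more than on any other chromosome, and 76 on chromosome 2.

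The starts of these genes were read from RefSeq on GRCh38.p14, where 322 of 857 matched by symbol, chromosome and strand. Over 250 bases before and 50 after the start, they held a median of 24 CpG dinucleotides, against 14 over the 35116 promoters of the table. The median was 32.5 in the 36 matched genes with a mean of at least 1 RPKM and 17.5 in the 116 under 0.03 RPKM. The letters TATAAA, searched on both strands, occurred in 6.83% of the matched promoters and 11.5% of all. The letters GGGCGG, searched in the same way, occurred in 57.8% against 45.0%. Below are the 250 bases before 3 starts that lie within 1 kb of the deposited entry's start, with each CpG in capitals. They belong to TRIO, one of the 2 most transcribed members, to MGMT, the gene with the smallest p among those lower in hypertonic medium, and to CUBN, with the smallest p among the higher ones that had a usable match.

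TRIO (chr5:14143092-14143341, plus strand): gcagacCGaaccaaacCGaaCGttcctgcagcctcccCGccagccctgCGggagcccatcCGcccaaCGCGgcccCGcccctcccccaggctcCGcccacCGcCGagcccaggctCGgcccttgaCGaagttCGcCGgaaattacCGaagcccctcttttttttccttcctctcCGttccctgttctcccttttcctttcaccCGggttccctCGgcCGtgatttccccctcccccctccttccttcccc

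MGMT (chr10:129466991-129467240, plus strand): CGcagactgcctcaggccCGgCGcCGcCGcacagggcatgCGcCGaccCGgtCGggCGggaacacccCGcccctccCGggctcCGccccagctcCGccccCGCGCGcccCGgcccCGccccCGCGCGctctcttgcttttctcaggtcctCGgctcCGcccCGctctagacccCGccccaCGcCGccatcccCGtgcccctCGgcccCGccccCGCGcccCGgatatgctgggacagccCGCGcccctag

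CUBN (chr10:17129812-17130061, minus strand): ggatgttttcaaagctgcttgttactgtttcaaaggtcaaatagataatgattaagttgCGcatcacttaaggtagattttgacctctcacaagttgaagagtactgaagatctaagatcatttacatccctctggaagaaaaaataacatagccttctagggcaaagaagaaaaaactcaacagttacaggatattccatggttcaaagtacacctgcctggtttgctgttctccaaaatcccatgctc

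The stretch before TRIO holds 21 CpG dinucleotides, the one before MGMT holds 36 and the one before CUBN holds 1. CUBN, which codes for the cobalamin-complex receptor cubilin, was also the least transcribed of the 3, at a mean of 0.0931 RPKM against 0.202 for MGMT and 6.11 for TRIO.

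Levels between genes are compared here as RPKM, the deposited reads per kilobase of counted length, scaled by library. The median of the compared genes was 0.0867 RPKM, against 0.524 RPKM over all tested genes, and 90 of them (10.5%) reached 1 RPKM against 31.0% of all tested genes. The most transcribed was PVT1, a long non-coding RNA gene (chromosome 8, 127794735 to 128101253, plus strand), at 5.02 RPKM in hypertonic replicate 1, 7.02 in hypertonic replicate 2, 7.37 in isotonic replicate 1 and 8.90 in isotonic replicate 2. Both hypertonic values lay below both isotonic values. TRIO, which codes for a guanine nucleotide exchange factor (chromosome 5, 14143702 to 14510204, plus strand), followed at 4.21, 5.58, 5.97 and 8.66 RPKM in the same order of libraries. PTK2, which codes for focal adhesion kinase, measured 5.37, 4.91, 5.87 and 6.58 RPKM. The next in order were EXT1, an enzyme of heparan sulfate synthesis, PALLD, an actin-associated scaffold, EDIL3, a secreted integrin ligand, DST, a cytoskeletal linker, and FNDC3B, with means of 4.47 to 3.10 RPKM. Very long length did not go with a high level: the 6 longest compared genes ranged from 0.277 RPKM for DLG2, a synaptic scaffold, to 0.00115 RPKM for DMD, which codes for dystrophin.

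**Figure D1:**
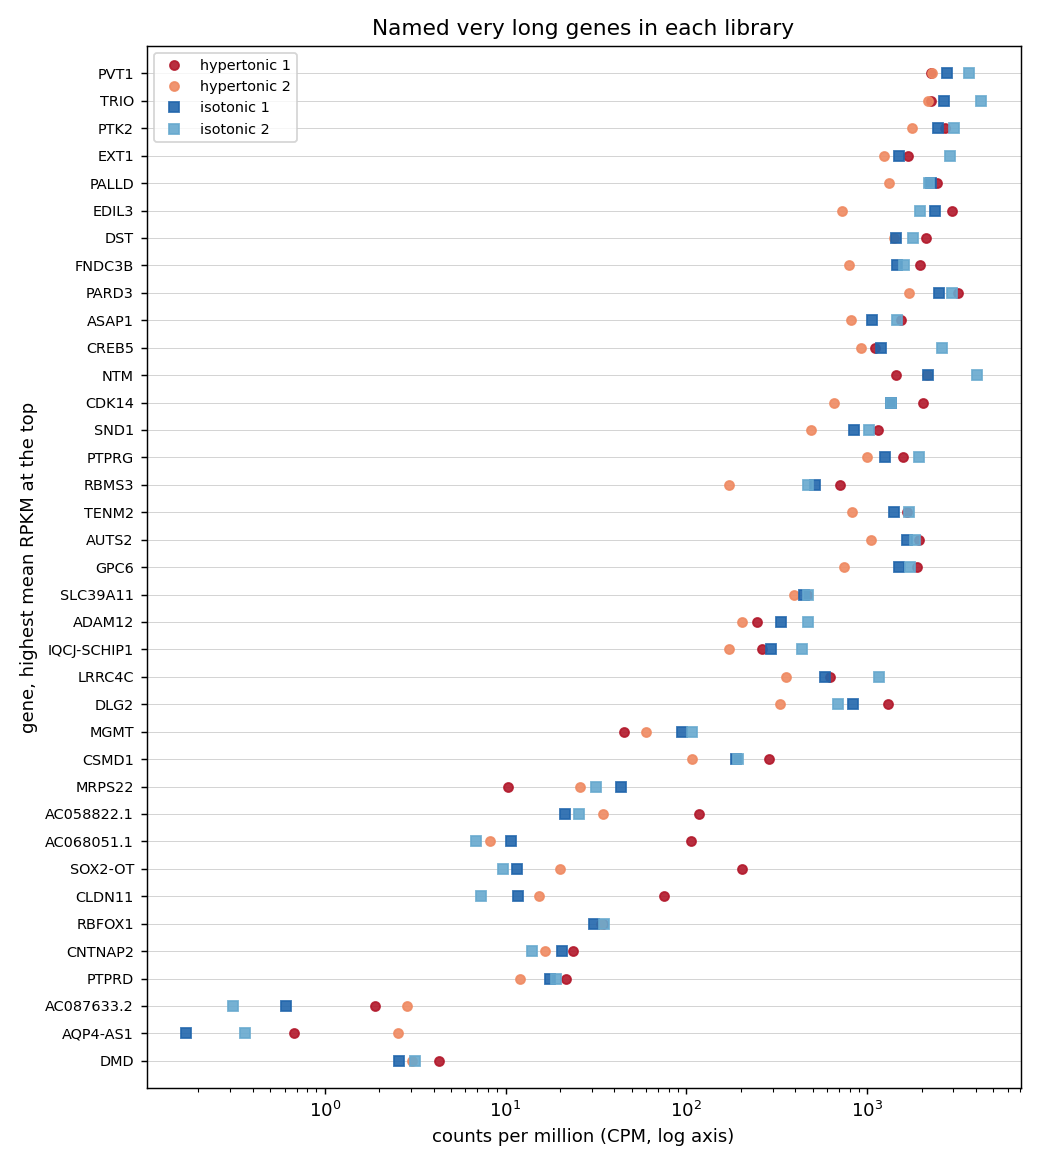
CPM of the 37 named very long genes in each library, on a log axis, ordered by mean RPKM from the top. Circles are hypertonic and squares isotonic libraries. Most genes above 0.1 RPKM have hypertonic replicate 2 leftmost; SOX2-OT, CLDN11, AC068051.1 and AC058822.1 have hypertonic replicate 1 far to the right.

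The first comparison asked which very long genes differed between hypertonic and isotonic medium with both libraries of each group in 1 test. No very long gene differed past an adjusted p of 0.05 by edgeR's quasi-likelihood test (0 of 857, lowest adjusted p 0.224). Across all 21238 tested genes 0% passed, with a lowest adjusted p of 0.192. At an unadjusted p under 0.05, 14 of 857 (1.63%) were higher in hypertonic medium, against 8.89% of all tested genes, and 1 (0.117%) was lower, against 2.01%. The median log2 fold change was 0.01 over the very long genes and 0.04 over all tested genes. DESeq2 called 2 very long genes, both higher, against 3.32% of all genes called higher and 0.118% called lower, and limma-voom called 0.

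SOX2-OT, a non-coding RNA gene that spans the stem cell factor gene SOX2 on the same strand (chromosome 3, 180989770 to 181836879), had the smallest p. On the CPM scale (counts scaled to the effective size of each library), it measured 203 in hypertonic replicate 1 and 20.1 CPM in replicate 2, with 11.5 and 9.65 CPM in the isotonic pair. Both hypertonic values were above both isotonic ones, and replicate 1 stood far above replicate 2. The log2 fold change was 3.40 ± 0.91 (SE), with an edgeR adjusted p of 0.224, and without hypertonic replicate 1 it was 0.89 with an adjusted p of 0.224. The same gene passed in DESeq2 (adjusted p = 0.00218). Its start lies 7017 bases after the end of FXR1, a more strongly transcribed gene on the same strand.

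CLDN11, which codes for a tight junction protein of myelin, measured 74.97 CPM in hypertonic replicate 1 and 15.3 CPM in replicate 2, with 11.7 and 7.28 CPM in the isotonic pair. Its entry starts 250 bases after AC073288.2, a more strongly transcribed gene on the same strand. The entry spans 441.5 kb, but the longest stretch between its 7 blocks of merged exons is 16574 bases. The annotated gene thus reaches over only part of the entry, and where the reads lie along it was not tested. AC058822.1 measured 118 and 34.8 CPM against 21.4 and 25.4 CPM. Its entry was counted over 79.0% of its span and starts directly after FIP1L1, so its reads may belong to its neighbours. The longest stretch between its annotated exons, 848959 bases, exceeds the entry's span of 769428 bases. The annotated gene thus reaches beyond the entry, and the entry's start need not be the gene's start. AC068051.1, of the antisense type, measured 106 and 8.17 CPM against 10.7 and 6.86 CPM. Its hypertonic and isotonic values overlap, because only replicate 1 was high. The other 2 of the 6 smallest p-values among higher genes belong to very weak entries: AC087633.2, at 1.90 and 2.87 against 0.613 and 0.310 CPM, and AQP4-AS1, at 0.676 and 2.55 against 0.172 and 0.361 CPM. In these both hypertonic libraries were above both isotonic libraries, on 6 to 73 counts a library. Adjusted p-values of these 5 genes were 0.320 to 0.359 by edgeR.

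MGMT, which codes for a DNA repair enzyme that removes alkyl groups from guanine (chromosome 10, 129467184 to 129768007, plus strand, no same-strand overlap), was the only very long gene lower at an unadjusted p under 0.05. It measured 45.0 CPM in hypertonic replicate 1 and 59.6 CPM in replicate 2, with 94.2 and 107 CPM in the isotonic pair. The groups did not overlap, and the log2 fold change was -0.94 ± 0.40 (SE), with an adjusted p of 0.433. It was -1.16 without hypertonic replicate 2 (adjusted p = 0.0200) and -0.79 without hypertonic replicate 1 (adjusted p = 0.152). ADAM12, a metalloprotease gene, measured 246 and 203 CPM against 333 and 471 CPM. CREB5, a leucine zipper transcription factor gene, measured 1102 and 925 CPM against 1194 and 2579 CPM. MRPS22, IQCJ-SCHIP1 and LRRC4C completed the 6 lower genes with the smallest p, with log2 fold changes of -1.06, -0.75 and -0.84 and adjusted p-values of 0.588, 0.612 and 0.633.

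In 103 of 857 genes (12.02%) both hypertonic libraries were above both isotonic libraries, against 22.5% of all tested genes. In 45 (5.25%) both were below, against 17.5%. Both counts lay under the background, and the next comparison shows where the other genes were.

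The second comparison set each hypertonic library apart against the isotonic pair; both parts of it share the isotonic libraries. Very long genes were higher in hypertonic replicate 1 and lower in hypertonic replicate 2 than in the isotonic libraries. The median log2 difference from the isotonic mean was 0.42 in replicate 1 and -0.55 in replicate 2. Over all tested genes these medians were 0.00 and 0.09, and isotonic replicate 2 differed from isotonic replicate 1 by a median of 0.07 in the very long genes. In 464 of 857 genes (54.1%, against 14.2% of all tested genes) replicate 1 was above both and replicate 2 below both isotonic libraries. The converse held in 8 (0.933%, against 15.9%). Replicate 1 was above replicate 2 in 747 (87.2%, against 46.8%). The rule was written with this divergence known, so these values, and the calls for each hypertonic library alone given further on, are a description and no support for it.

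**Figure D2:**
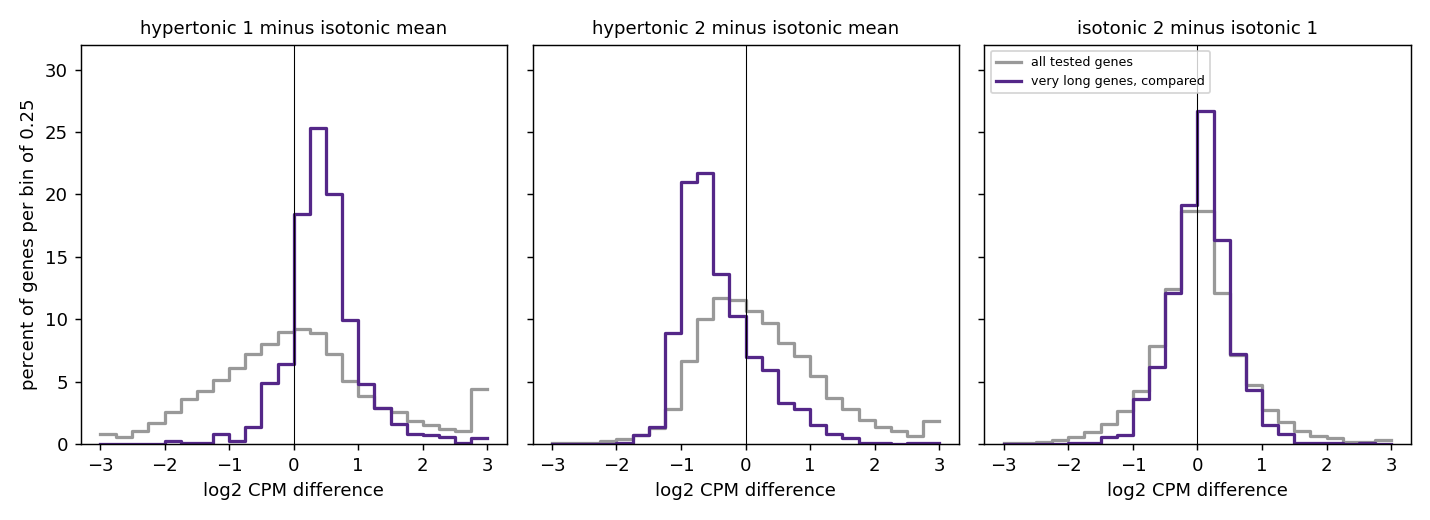
Percent of genes per bin of 0.25 in the log2 CPM difference of each hypertonic library from the isotonic mean and of the isotonic libraries from each other; values beyond 3 or -3 are in the end bins. The 857 very long genes (purple) lie to the right in hypertonic replicate 1 and to the left in replicate 2, with medians of 0.42 and -0.55, and centre near 0 between the isotonic libraries.

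EDIL3 shows the pattern at a high level: 2941 CPM in hypertonic replicate 1, 726 CPM in replicate 2, and 2389 and 1969 CPM in the isotonic libraries. RBMS3, an RNA-binding protein gene, measured 709 and 172 CPM against 517 and 474 CPM. DLG2, of 2172 kb, measured 1309 and 329 CPM against 837 and 689 CPM. In each of these both isotonic libraries lay between the hypertonic ones. They are wide examples: replicate 1 exceeded replicate 2 by 2.02, 2.05 and 1.99 on the log2 scale, against a median of 0.94 over the 857 genes. CDK14, a cyclin-dependent kinase gene, measured 2049 and 654 CPM against 1348 and 1353 CPM, and its log2 fold change over both libraries was 0.00 ± 0.57 (SE), adjusted p = 1.00 by edgeR. Not every gene did so: PVT1 and TRIO were below the isotonic libraries in both hypertonic libraries, and RBFOX1, an RNA splicing factor gene that is the longest entry, measured 34.6 and 33.8 CPM against 30.7 and 35.0 CPM.

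In edgeR fits with 1 hypertonic library against both isotonic ones, the lone library is assumed to vary like the others. Hypertonic replicate 1 alone gave 67 of 860 very long genes higher past an adjusted p of 0.05 (7.79%, against 11.1% of all tested genes) and 12 lower (1.40%, against 10.3%). The 67 held 48 protein-coding genes and 19 of other types, their log2 fold changes had a median of 1.37, and 12 started within 10 kb after, or inside, a same-strand gene at least 4 times as active. Beside SOX2-OT, AC068051.1, AC058822.1 and CLDN11, the smallest p-values belonged to COL21A1, a collagen gene, at 40.4 CPM against 3.61 and 4.13 CPM in the isotonic libraries, and AC084816.1, a lincRNA. Of the 12 lower genes, all protein coding, MAD1L1, which codes for a spindle checkpoint protein, had the smallest p, at a log2 fold change of -1.54. MAD1L1 measured 253 CPM in hypertonic replicate 1 and 769 CPM in replicate 2, against 592 and 873 CPM, so replicate 2 lay between the isotonic libraries. CDH4, a cadherin gene, was lower in replicate 1 at a log2 fold change of -2.10. These names were picked after their values were seen.

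Hypertonic replicate 2 alone gave 0 of 859 very long genes past an adjusted p of 0.05 in either direction, as it gave 0% of all tested genes. At an unadjusted p under 0.05, 351 (40.9%) were lower, against 10.8% of all tested genes, and 13 (1.51%) were higher, against 11.8%. For hypertonic replicate 1 the unadjusted counts were 194 higher (22.6%, against 17.8%) and 18 lower (2.09%, against 17.8%). The 351 held 332 protein-coding genes and their log2 fold changes had a median of -0.89. EDIL3 (-1.62), RBMS3 (-1.56), TCF4, a basic helix-loop-helix transcription factor gene (-1.30), PPP3CA, the catalytic subunit of calcineurin (-1.24), PTPRK, a receptor tyrosine phosphatase gene (-1.36), and GPC6, a glypican gene (-1.15), had the smallest p, and none passed adjustment. The 13 higher genes held 9 non-coding entries, and 12 of the 13 had a mean under 0.03 RPKM.

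The hypertonic libraries also differed between length classes of the whole table. Median log2 differences of hypertonic replicate 1 from the isotonic mean were -0.13 in genes under 10 kb, -0.42 at 10 to 30 kb, -0.05 at 30 to 100 kb and 0.28 at 100 to 300 kb. They were 0.41 at 300 to 500 kb, 0.43 at 500 to 1000 kb and 0.48 over 1000 kb. For hypertonic replicate 2 the medians were 0.32, 0.38, 0.02, -0.37, -0.52, -0.62 and -0.47 in the same classes. The medians of both libraries had 1 sign under 30 kb and the other over 100 kb. Neither library followed length step by step at the short end. Beyond 300 kb the medians of replicate 1 rose slightly at each step, while those of replicate 2 kept no order. Spearman's rho with length over all tested genes was 0.15 for replicate 1 and -0.22 for replicate 2, weaker than the rho with mean RPKM, which was -0.38 for both. Within the 857 genes rho with length was 0.02 and -0.09, and with mean RPKM -0.38 and -0.52. These are descriptions over genes that share the same libraries.

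**Figure D3:**
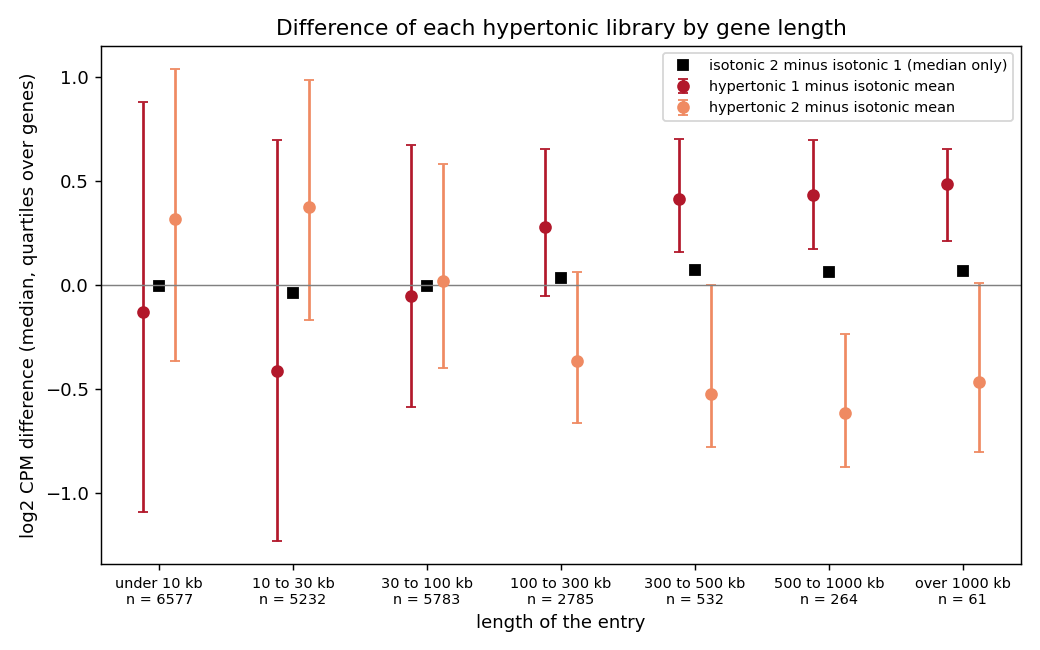
Median log2 CPM difference of each hypertonic library from the isotonic mean by length of the entry; bars are quartiles over genes, squares the median difference between the isotonic libraries, and n the number of genes. The hypertonic libraries cross between 30 and 300 kb and lie at 0.41 to 0.48 and -0.47 to -0.62 in the 3 longest classes.

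Because very long genes are weakly transcribed, the classes were also read at like levels. Among genes of at least 1 RPKM, the medians for replicate 1 were -1.07 at 10 to 30 kb (1524 genes) and 0.29 over 300 kb (90 genes), and for replicate 2 they were -0.17 and -0.76. Among genes of 0.3 to 1 RPKM, replicate 1 had -0.59 at 10 to 30 kb (1800 genes) and 0.30 over 300 kb (168 genes), and replicate 2 had 0.41 and -0.75. Replicate 2 was below the isotonic mean in 88 of the 90 (97.8%) and 163 of the 168 (97.0%), against 68.3 and 42.8% of all tested genes of these levels. In genes of 100 to 300 kb at the same levels the shares were 94.9 and 86.8%, so most genes of the next shorter class were below it too.

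Level also moved with the result inside the very long genes. In the 186 compared genes under 0.01 RPKM the medians were 0.63 in replicate 1 and 0.08 in replicate 2, and both hypertonic libraries were above both isotonic ones in 62 of them (33.3%). All 714 tested genes of that level had medians of 0.74 and 0.39, and 42.4% of them had both above. In the 148 very long genes of 0.1 to 0.3 RPKM the medians were 0.37 and -0.64, and both were above in 2 (1.35%, against 34.3% of all tested genes of that level). Higher values of weak genes in both hypertonic libraries were thus present in the table at large. These differences between level classes were not tested.

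Levels differed between gene types. In the 702 protein-coding genes the group test's log2 fold changes had a median of -0.03, with medians of 0.39 and -0.62 for replicates 1 and 2. The 92 lincRNAs had 0.33, with 0.61 and -0.23, and the 35 antisense-type genes 0.30, with 0.64 and 0.06. The median level was 0.125 RPKM in protein-coding genes, 0.0138 in lincRNAs and 0.0210 in antisense-type genes. Of the 14 genes higher at an unadjusted p under 0.05, 4 were protein coding.

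A few very long genes lie close behind an active neighbour. The entries of 13 compared genes started within 10 kb downstream of a same-strand gene at least 4 times as active, and 4 started inside one. Among the 13 the log2 fold changes had a median of 1.25, with medians of 1.98 in replicate 1 and -0.20 in replicate 2, and 5 of them (38.5%) were higher at an unadjusted p under 0.05, against the 8.89% of all tested genes and 9 of 840 (1.07%) with neither. Among these 840 the median log2 fold change was 0.00, with library medians of 0.41 and -0.55, so the divergence of the libraries was as large without the 17.

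Genes were also grouped by function, in 9 lists that held 370 of the 857. In none of the 9 did a member pass an unadjusted p under 0.05 in either direction in the test of both groups. Over the 857 genes 1.63% were higher and 0.117% lower at that threshold, against 8.89 and 2.01% of all tested genes. Every list had a positive median in hypertonic replicate 1 and a negative one in replicate 2. The 14 higher genes and the 1 lower gene were all outside the lists. Of the 14, only 4 were protein coding. The lists were drawn up by known gene roles, so this says little about function.

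Of 53 genes for neuronal adhesion and synapses, medians were 0.36 in replicate 1 and -0.71 in replicate 2. NTM, which codes for the adhesion protein neurotrimin and was the highest of them, measured 1448 and 2135 CPM against 2175 and 4042 CPM, the reverse order of the hypertonic libraries. TENM2, a teneurin gene, measured 1654 and 823 CPM against 1414 and 1715 CPM. Of 33 genes for guidance receptors, their ligands and receptor phosphatases, the medians were 0.41 and -0.69. PTPRG measured 1570 and 998 CPM against 1258 and 1925 CPM, and GPC6 measured 1883 and 745 CPM against 1503 and 1731 CPM.

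The 36 genes at common fragile sites had medians of 0.54 and -0.68. In 25 (69.4%) replicate 1 was above and replicate 2 below both isotonic libraries. The share was 54.1% over the 857 very long genes and 14.2% over all tested genes, and in the other lists it ran from 49.3 to 66.7%. AUTS2, a regulator of neuronal transcription, measured 1946 and 1048 CPM against 1666 and 1850 CPM. The best known fragile site genes were flatter: FHIT measured 93.6 and 56.8 CPM against 68.5 and 83.6 CPM, and WWOX measured 368 and 290 CPM against 338 and 386 CPM. Both were named after their values were seen.

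The 49 transcription and chromatin regulators had medians of 0.35 and -0.78, and the 10 RNA-binding protein genes 0.14 and -0.62. SND1, a nuclease-domain protein gene of the second list, measured 1148 and 490 CPM against 846 and 1019 CPM. In 48 genes for kinases, phosphodiesterases and lipid signalling the medians were 0.32 and -0.66, and PTK2 measured 2697 and 1782 CPM against 2452 and 3008 CPM. In 33 regulators of small GTPases they were 0.28 and -0.63. ASAP1, a GTPase-activating protein gene for Arf, measured 1533 and 819 CPM against 1064 and 1472 CPM.

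The 67 ion channel and transporter genes were the list with the lowest share of negative values in replicate 2 other than the RNA-binding proteins, 70.1%, with medians of 0.44 and -0.36. Their median level was 0.0357 RPKM and none reached 1 RPKM. SLC39A11, a zinc transporter gene, measured 463 and 395 CPM against 448 and 473 CPM. The 62 genes for cytoskeleton, polarity and matrix had medians of 0.40 and -0.69. PARD3, a polarity scaffold gene, measured 3162 and 1695 CPM against 2483 and 2945 CPM, and DST measured 2130 and 1417 CPM against 1440 and 1788 CPM.

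With hypertonic replicate 1 alone, between 0 and 5 members a list were higher past an adjusted p of 0.05, against the 11.1% of all tested genes given above. The 5 were reached by the 36 fragile site genes and by the 48 kinases, phosphodiesterases and lipid signalling genes, shares near that background. Lower past the same threshold were 2 neuronal adhesion and synapse genes, 2 small GTPase regulators, 1 fragile site gene and 1 cytoskeleton, polarity and matrix gene. In each of these lists the share of lower genes was under that of all tested genes given above. In hypertonic replicate 2 the list medians ran from -0.78 in the transcription and chromatin regulators to -0.36 in the channels and transporters. The median over the 857 very long genes, -0.55, lay inside this range.

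Of all sense counts, very long genes took 20.6% in hypertonic replicate 1, 14.0% in hypertonic replicate 2, and 17.1 and 17.9% in the isotonic pair. The isotonic values lay between the hypertonic ones. The group means were 17.3% ± 4.68 (SD, n = 2) and 17.5% ± 0.512 (SD, n = 2), with an exact two-sided permutation p of 1.00; 2 against 2 libraries cannot give a p below 0.3333. Genes of 10 to 30 kb went the other way, at 8.95 and 14.2% in the hypertonic and 11.6 and 11.5% in the isotonic libraries.

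Entries nested inside a very long gene on the same strand, at a known distance from its start, gave a view along the gene. For 198 of 251 host genes with a single nested entry, the bases missing from the host equal the counted length of the nested entry, so the reads there are counted once. In all, 175 nested entries in 118 hosts of at least 0.1 RPKM were used, leaving out entries over 5 times as dense as their host; this view was chosen after seeing the data. The CPM of the nested entries in hypertonic replicate 2, as a ratio to the isotonic mean, was 0.840 within 50 kb of the host's start, 0.691 at 50 to 100 kb, 0.719 at 100 to 200 kb, 0.591 at 200 to 400 kb and 0.557 beyond 400 kb. In hypertonic replicate 1 the ratio was 0.888, 1.23, 1.14, 1.16 and 1.16. Within 50 kb replicate 1, at 38.2 CPM, lay between the isotonic libraries (37.2 and 48.7 CPM), and replicate 2, at 36.1 CPM, lay just below them. Beyond 50 kb replicate 1 was above and replicate 2 below the isotonic mean in every class. The ratio of replicate 1 was highest at 50 to 100 kb. In these classes hypertonic replicate 1 measured 38.0, 37.0, 64.5 and 17.0 CPM. Isotonic replicate 1 measured 28.7, 28.4, 52.6 and 13.3 CPM, and isotonic replicate 2 measured 32.9, 36.4, 58.9 and 15.9 CPM. The margin over isotonic replicate 2 was thus narrow at 100 to 200 kb.

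Relative to the host's own reads per base, nested entries in hypertonic replicate 2 went from 1.53 within 50 kb to 0.813 beyond 400 kb. The isotonic libraries went from 1.07 and 1.29 to 0.949 and 0.923, and hypertonic replicate 1 from 0.983 to 1.02. Without the entry with most counts in each class, replicate 2 went from 1.41 to 0.624, the isotonic libraries from 1.06 and 1.27 to 0.876 and 0.770, and replicate 1 from 1.09 to 0.795. The classes hold 22 to 51 entries from different hosts, and the nearest class holds 904 to 1518 counts a library. The class beyond 400 kb holds only 207 to 541 counts a library, of which a single entry, AC011369.2, gave 29.1%. In the nearer classes a single entry gave 15.2% within 50 kb, 23.4% at 50 to 100 kb, 31.0% at 100 to 200 kb and 13.1% at 200 to 400 kb.

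**Figure D4:**
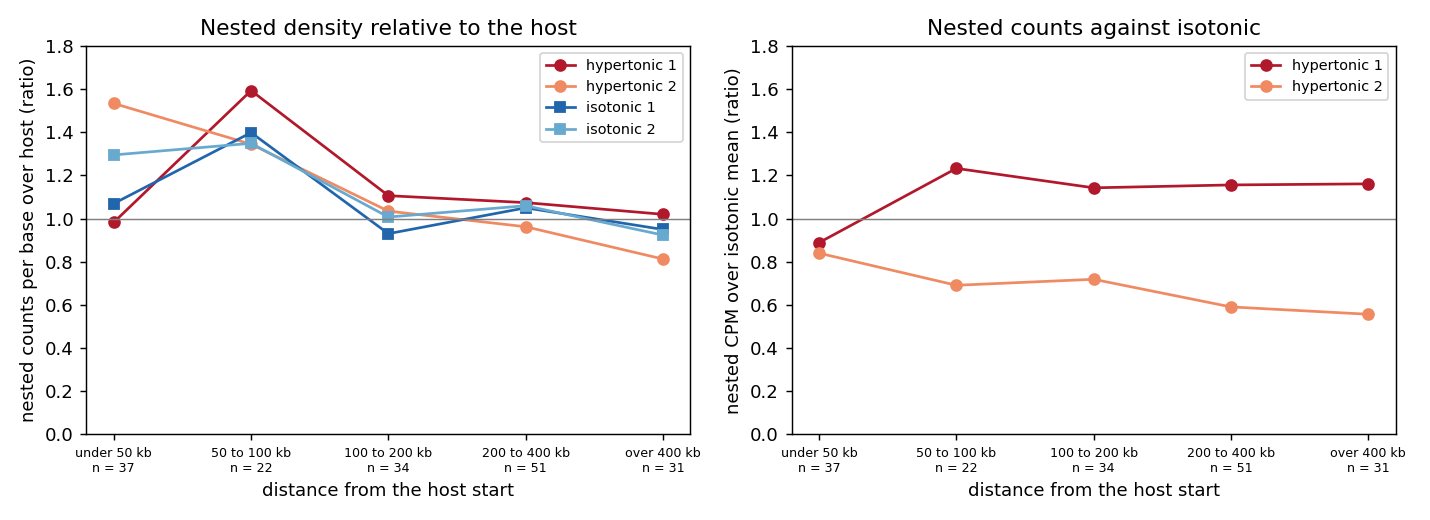
Nested same-strand entries by distance from the start of their very long host. The left panel shows their reads per base over those of the hosts in each library, the right panel their CPM over the isotonic mean; n is the number of entries. On the right hypertonic replicate 2 goes from 0.840 to 0.557 and replicate 1 from 0.888 to 1.16.

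The third comparison concerned reads from the strand opposite to the gene, which the rule did not use. Over the very long genes, antisense counts per 100 sense counts were 4.76 and 4.94 in the hypertonic and 2.64 and 2.94 in the isotonic libraries. Both hypertonic libraries were above both isotonic ones, with means of 4.85 ± 0.123 and 2.79 ± 0.217 (SD, n = 2 each) and an exact two-sided permutation p of 0.3333, the smallest this design allows. In the 180 very long genes with no annotated gene on the other strand the values were 4.99 and 4.11 against 2.29 and 2.96. All other genes had 10.7 and 6.75 against 3.45 and 3.64, a wider gap in ratio than in the very long genes, which was not tested. As a share of the antisense counts of all genes the very long genes went the other way, at 10.5 and 10.8% against 13.8 and 15.1%. LSAMP, with an annotated gene opposite, held 29621 and 18387 antisense counts in the hypertonic and 41393 and 29989 in the isotonic libraries. That was the most of any very long gene in hypertonic replicate 1. The sums over all very long genes and this share include LSAMP, and their values without it were not taken.

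Gene by gene, 753 very long genes had enough antisense and sense reads to be read singly. The antisense ratio was higher in both hypertonic than in both isotonic libraries in 432 (57.4%, against 56% of all 8406 genes read in this way) and lower in 13 (1.73%, against 5.44%). The first share lay near the background. JAZF1, a zinc finger gene, had 67.4 and 49.1 antisense counts per 100 sense counts in the hypertonic and 27.1 and 31.9 in the isotonic libraries. ARHGAP42 had 54.4 and 64.3 against 49.9 and 146, so its groups overlapped. It held 5075 and 2545 antisense counts in the hypertonic and 5692 and 8901 in the isotonic libraries. That is a large part of the sum over the 180 genes in isotonic replicate 2. Neither gene has an annotated gene opposite, and both were picked after their values were seen. The antisense shares of gene counts given in the opening were low in every library, as in strand-specific reads. The share of reads placed on the wrong strand was not measured.

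**Figure D5:**
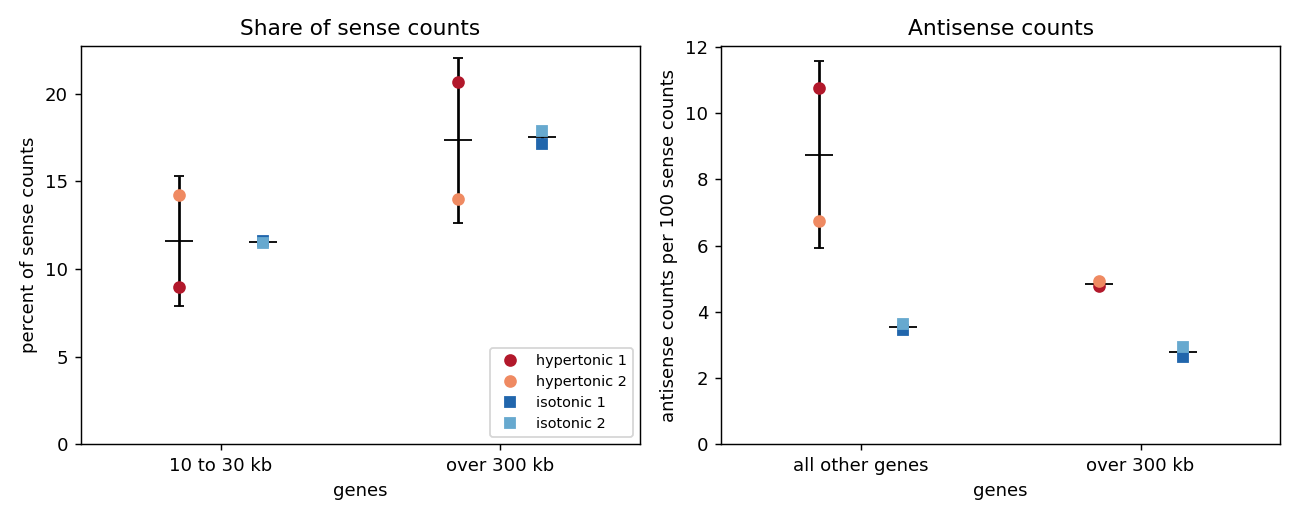
Left, percent of sense counts in genes of 10 to 30 kb and over 300 kb; right, antisense counts per 100 sense counts in all other genes and in very long genes. Circles are hypertonic and squares isotonic libraries; horizontal bars are group means and error bars 1 SD (n = 2). The hypertonic libraries lie on either side of the isotonic ones on the left, at 20.6 and 14.0% over 300 kb, and above them on the right.

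At the edges of the rule, COBL (300607 bases) and NOS1AP (300702 bases) were the shortest genes inside, with mean counts of 3899 and 1632. NUBPL (299830 bases) and AC007563.2 (299616 bases) were the longest outside, with mean counts of 4052 and 59.8. The mean count was 10.0 in LINC01811, just inside the count minimum, and 9.75 in AC096719.1, just outside.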

How the data were processed

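Bru-seq libraries of 2 hypertonic and 2 isotonic U2OS samples were used, grouped by their labels. The members, gene lists and classes were chosen with earlier results of these data known. Per the submitters' processing notes, the builds were hg38 and GRCh38, and STAR 2.5.3a, Bowtie2 2.3.3, bedtools 2.16.2 and CASAVA 1.8.2 were used; no role is stated for any of these tools. The deposited tables of the authors hold an estimated count per gene and strand, and an RPKM value that is this count divided by the counted length and by a constant of each library; the tables have no header, and both units were read from the values. Strand, gene type and exons came from GENCODE 29 by Ensembl identifier, and spans came from the deposited entries, so the 2 can differ in extent. The 48 entries for regions shared between genes, with 3.11 to 3.48% of counts, and 304 genes without a match or on the pseudoautosomal Y (0.165 to 0.209% of counts) were left out.

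Expected counts were rounded and tested over all sense entries with edgeR 4.0.16 (R 4.3.3; TMM factors 0.947, 1.22, 0.974 and 0.887, default expression filter, quasi-likelihood test, Benjamini-Hochberg adjustment at 0.05); the script was tested on simulated data. CPM uses the effective library sizes, and log2 differences use a prior count of 2. DESeq2 1.42.0 and limma 3.58.1 (voom) were alternatives. Single values per library were compared by exact permutation tests (scipy 1.17.1). The lowest total count of a library was 23048409; counts are of reads, not molecules.

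Named were the 8 compared genes with the highest mean RPKM, the 6 longest, the 6 with the smallest p in each direction and the 2 with the highest mean count of each functional list; others are marked in the text, and 1 gene that this rule named is not reported here. After the values were seen, 8 symbols that did not belong to their list by function were taken out (EXT1, BCL2 and PRR16 from the transcription list; FTO, CDKAL1, CAMKMT, SHANK2 and SMURF1 from the kinase and lipid signalling list).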

Additional observations from a re-analysis of the deposited data

How the results depend on the processing

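The number of very long genes past an adjusted p of 0.05, 0 by edgeR on all 4 libraries, was 0 under every scaling, the mean count filter, limma-voom, the length and count limits and without same-strand overlaps; it was 2 with DESeq2, 4 with no filter (against 2.33% of all genes higher and 0.126% lower) and 1 with the replicate block. The counts at an unadjusted p under 0.05, 14 higher and 1 lower, were 23 higher and 0 lower with upper quartile scaling, 0 lower with total counts, 7 lower with no filter, 24 higher and 0 lower with DESeq2, 9 higher with limma-voom and 2 higher without same-strand overlaps. They were 29 and 5 over 200 kb, 6 and 0 over 500 kb, and 8 higher at a mean count of at least 200. The counts of groups that did not overlap, 103 above and 45 below, were 175 and 25 with total counts, 14 below with the upper quartile, 26 and 8 without same-strand overlaps, 194 and 107 over 200 kb, 33 and 15 over 500 kb, 67 above at a mean count of at least 50 and 35 above at one of 200. They use no fit, so the replicate block gives no value for them. Scaling by total counts or upper quartile moved the median over all genes tested from 0.04 to 0.26 and 0.23 on the log2 scale.

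The divergence of the hypertonic libraries kept its sign under every alternative run. The median of replicate 1 was 0.66 with the upper quartile, 0.31 at a mean of at least 0.1 RPKM (added after seeing the data) and 0.13 on log2(RPKM + 0.01), a scale that flattens weak genes. The median of replicate 2 was -0.64 with RLE factors, -0.15 with total counts, -0.41 with the upper quartile, -0.60 over 500 kb and at a mean count of at least 50, -0.65 at one of 200, -0.73 at a mean of at least 0.1 RPKM and -0.22 on log2(RPKM + 0.01). Relative to the median of all tested genes, the very long genes differed by 0.43 in replicate 1 and by -0.63 to -0.64 in replicate 2 under each of the 4 scalings. A scaling factor shifts all genes of a library nearly alike, so this sameness follows from the calculation and is no support for the divergence. The hypertonic over isotonic antisense ratio, 1.74 per sense count, reversed to 0.734 when taken per antisense count of all genes. These sums include LSAMP and are divided by totals that themselves differ between the groups.

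Leaving out each library in turn gave 3 to 194 higher and 0 to 351 lower genes at an unadjusted p under 0.05, 0 to 79 past an adjusted p of 0.05, and 124 to 636 above and 68 to 611 below in the groups that did not overlap. The 351 and 611 came without hypertonic replicate 1, and the 194, 79 and 636 without hypertonic replicate 2. With 1 library against 2, groups fail to overlap more easily than with 2 against 2. The counts above and below are thus not comparable with those of all 4 libraries, and their shares over all tested genes are not given. Replicate numbers do not pair the samples by their labels. Same-numbered deviations correlated at 0.02 over all tested genes and at 0.41 over the 857 very long genes. With the replicate block 9 genes were higher and 0 lower at an unadjusted p under 0.05, and SOX2-OT alone passed adjustment, against 1.79% of all tested genes called higher.

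Of 454 log2 fold changes of the 37 named genes under alternatives, 393 kept their direction and side of the threshold, 15 newly passed it and 46 changed sign, in 19 genes; 12 genes did so when hypertonic replicate 2 was left out and 6 when hypertonic replicate 1 was; leaving out isotonic replicate 1 did so in 3 genes, and leaving out isotonic replicate 2 in 4. No call was lost, since none was made. With total counts the changed values were 0.0103 in PARD3, 0.067 in ASAP1, 0.11 in SLC39A11 and 0.0498 in PTPRD. With the upper quartile the changed values were 0.053 in FNDC3B, 0.044 in PARD3, 0.096 in ASAP1, 0.022 in SND1, 0.049 in RBMS3, 0.093 in SLC39A11 and 0.083 in PTPRD. With no filter the changed values were -0.0705 in CDK14, -0.035 in CSMD1 and -0.0043 in RBFOX1. With the mean count filter the changed value was -0.0025 in CDK14. With the replicate block the changed values were -0.22 in CDK14, -0.21 in DLG2 and -0.13 in CSMD1. With limma-voom the changed values were -0.22 in CDK14, -0.21 in DLG2 and -0.13 in CSMD1. Leaving out 1 library, the log2 fold changes ranged -0.80 to 0.12 in PALLD, -1.62 to 0.43 in EDIL3, -0.22 to 0.40 in DST, -0.99 to 0.35 in FNDC3B, -0.71 to 0.22 in PARD3, -0.66 to 0.27 in ASAP1 and -1.08 to 0.60 in CDK14. They ranged -0.96 to 0.30 in SND1, -1.56 to 0.51 in RBMS3, -0.96 to 0.076 in TENM2, -0.78 to 0.14 in AUTS2, -1.15 to 0.22 in GPC6 and -0.26 to 0.0058 in SLC39A11. They ranged -1.25 to 0.77 in DLG2, -0.87 to 0.57 in CSMD1, -0.14 to 3.58 in AC068051.1, -0.062 to 0.12 in RBFOX1, -0.11 to 0.50 in CNTNAP2 and -0.64 to 0.24 in PTPRD.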
